A study of Mus musculus with 2 samples.

Results

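The genes that fasten the epidermis to the layer beneath it were described on microarrays of primary keratinocytes from mouse skin. The 9 genes are a list by symbol of parts of that attachment: the integrin genes Itga6, Itgb4 and Itga3, the collagen genes Col17a1 and Col7a1, the laminin chain genes Lama3 and Lamb3, and the plakin genes Plec and Dst. They were found through the RefSeq accession of each probe, and they held 11 of 55678 probes and 9 of 20140 genes named on the array. Of these genes 7 had 1 probe, and Lama3 and Dst had 2 probes each. Other probes of the array, 29104 in all, could not be named in this way, and none of them is counted here.

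Hemidesmosomes are rivets in the basal membrane of a keratinocyte. Integrin α6β4 and collagen XVII span the membrane, plectin and dystonin tie them to the keratin filaments inside the cell, and laminin-332 in the basement membrane outside is their ligand. Collagen VII forms the anchoring fibrils that bind the basement membrane to the dermis, and inherited loss of any of these parts causes fragile, blistering skin.

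RNA came from 1 sample of cells labelled Rac3-KO, the study's control, and from 1 sample labelled Rac1/Rac3-DKO. Rac1 and Rac3 are small GTPases that relay signals to the actin cytoskeleton, and by the labels both samples lack Rac3. The labels describe both as P3 primary keratinocytes without explaining P3, and they do not name the deleted exons, the driver of the deletion, or the number of mice behind a sample. The series title concerns signals that depend on Rac and pass from keratinocytes to white fat cells in the skin. With 1 array per genotype there were no replicates and no test between genotypes was possible, so every difference is a description of these 2 arrays. The brighter of the Rac1 probes differed by 0.28 (log2) and the other by -0.12, so the probes do not bear out the deletion. The Rac3 probe passed background on each array, with signals of 99.8 and 59.1, or 4.26 and 2.94 times the lowest signal called well above background, and so does not bear out the loss of Rac3 that the labels give to both samples. Where the probes lie in these genes was not examined here, and they may lie outside the deleted parts. The arrays are therefore called the control array and the DKO-labelled array below.

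The labelled cell type was checked against its markers. All 12 keratinocyte markers were well above background on both arrays, and 11 of 12 were lower on the DKO-labelled array by 2-fold or more, and 0 higher (median log2 difference -1.80). The summed signal of these markers, of which Krt5 and Perp were the brightest, was 703586 on the control array and 98663 on the DKO-labelled one. Markers of other tissues were present on both arrays too. The summed processed signal of 10 skeletal muscle markers was 264085 on the control array and 737879 on the DKO-labelled array, with 9 of 10 at least 2-fold higher (median 2.62) and the brightest, the troponin genes Tnnc2 and Tnni2, at 2.40 and 2.66. Of 8 fibroblast markers, led in brightness by Col1a2 and Col3a1, 2 were at least 2-fold higher (median 0.83). Their summed signal was 1098860 on the control array and 974537 on the DKO-labelled array. It was larger than that of the keratinocyte markers on both arrays, though sums over different probes do not measure shares of cells. Of 7 endothelial markers, led by Kdr and Cldn5, 2 were at least 2-fold higher (median 0.60), of 6 leukocyte markers, led by Csf1r and Itgam, 3 (median 1.08), and of 5 adipocyte markers, led by Fabp4 and Lpl, 0 (median 0.57). The 4 Schwann cell markers measured on both arrays, of which Mbp was the brightest, had a median of -0.11. The part of this mixture in the differences of the 9 genes was not tested, and fewer keratinocytes and less of a given RNA per keratinocyte cannot be told apart in such samples.

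All 11 probes were well above background on both arrays, the dimmest at 7.75 times the lowest signal that was. A level is the log2 processed signal minus the array's 75th percentile, which was 705 on the control array and 354 on the DKO-labelled array. A raw signal can therefore be lower on the DKO-labelled array while its level is not. Some raw signals, such as those of Tnnc2 and Tnni2, were higher there. The error given is the scanner software's own signal error, about 0.20 on a log2 difference. It holds no variation between cultures or mice.

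On this scale 4 of the 9 genes (44.4%) were lower on the DKO-labelled array by 2-fold or more, namely Col17a1, Lama3, Lamb3 and Itga3. Of all 14140 genes measured, that is, with a brightest probe above background on each array, 936 (6.62%) were that much lower. The count of 4 depends on the processing: it was 7 with normexp background correction, 9 with spike-in scaling, and 0, with 2 genes higher, when scaled to the keratinocyte markers. Over all genes, 663 of 14135 were that much lower with normexp and 13196 of 14140 with spike-in scaling. Scaled to the keratinocyte markers, 28 of all 14140 genes were that much lower and 12703 that much higher. Itgb4, Col7a1 and Itga6 lay just inside the 2-fold line at 1.98-fold, 1.97-fold and 1.85-fold lower. Plec and the brighter Dst probe were above 0. No gene of the 9 was at least 2-fold higher by its brightest probe, against 1091 of all measured genes (7.72%). The median over the 9 genes was -0.98, beside -0.0077 over all measured genes.

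**Figure D1:**
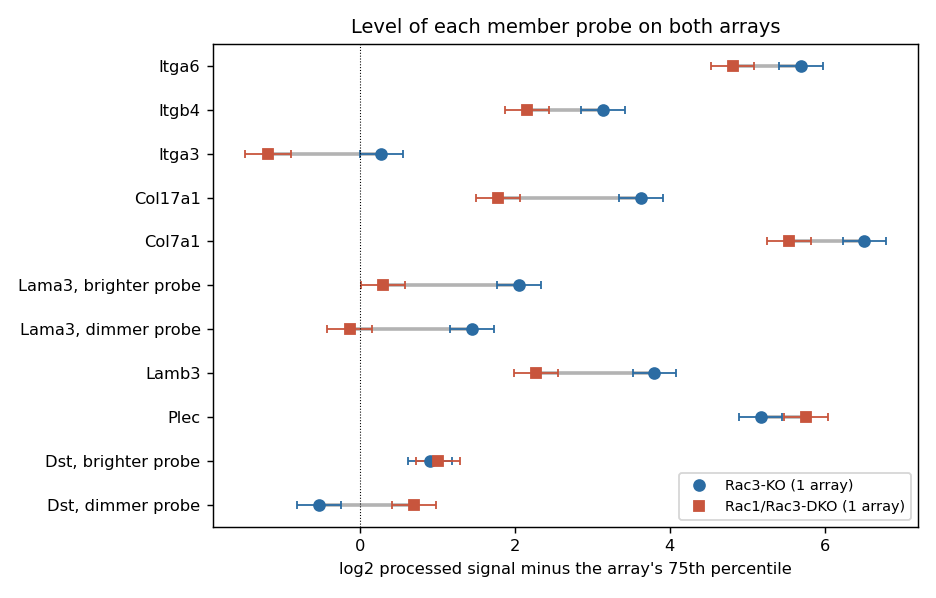
Level of each of the 11 probes (x axis, log2 processed signal minus the array's 75th percentile) on the control array (blue circles) and the DKO-labelled array (red squares); bars are the 95% range of the software's signal error, and the gray line joins the levels of a probe. Itga6, Itgb4, Itga3, Col17a1, Col7a1, Lama3 and Lamb3 had lower levels on the DKO-labelled array and Plec and the dimmer Dst probe higher ones; levels of different probes are not comparable.

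Integrins first. Itga6, the α6 chain that pairs with β4 in hemidesmosomes and with β1 elsewhere, had a processed signal of 36497 on the control array and 9933 on the DKO-labelled array. Its level was thus lower by 0.89 (log2 difference -0.89, error 0.20). Itgb4 encodes the β4 chain, whose long cytoplasmic tail binds plectin and collagen XVII. Its signals were 6193 and 1575, a log2 difference of -0.98 (error 0.20). The gap between the differences of these partner chains was 0.098 with an error of 0.29, smaller than the error.

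Itga3 encodes the α3 chain, which pairs with β1 and binds laminin-332 outside hemidesmosomes. Its signals were 854 and 156, which makes it 2.76-fold lower (log2 difference -1.46, error 0.21). It was the dimmest of the 9 genes' probes on the DKO-labelled array against background, and with normexp background correction its difference was -1.12. Itgb1, the β1 partner, was 1.63-fold higher at its brighter probe and 2.05-fold higher at its further probe. The gap between α3 and β1, by the brighter β1 probe, was 2.17 (error 0.29).

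Both collagens were lower. Col17a1 encodes collagen XVII, the transmembrane collagen of the hemidesmosome, also known as the bullous pemphigoid antigen BP180. Its signals were 8732 on the control array and 1219 on the DKO-labelled array. It was 3.60-fold lower (log2 difference -1.85, error 0.20), the lowest of the 9, and 1.36% of all measured genes had a lower difference. Col7a1, the chain of the anchoring fibrils, had signals of 64309 and 16449.5 and was 1.97-fold lower (-0.97, error 0.20). The gap of 0.87 between these collagens exceeded the 95% range of the software's error (0.29), which holds no difference between probes. Fibroblasts also make collagen VII, and the median of their markers was 0.83 beside it.

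Both laminin chain genes were lower. The brighter probe of Lama3, the α3 chain, had signals of 2922 and 434 and was 3.38-fold lower (-1.76, error 0.20). The further Lama3 probe had signals of 1917 and 323 and was 2.99-fold lower (-1.58), and the gap between both probes, 0.18, was under its error of 0.29. Lamb3, the β3 chain, had signals of 9818 and 1705 and was 2.89-fold lower (-1.53, error 0.20). The gap between the differences of Lama3 and Lamb3 was 0.23, smaller than its error of 0.29.

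The plakins did not share this pattern. Plec encodes plectin, the linker from β4 integrin to keratin filaments in skin and to desmin filaments in muscle. Its signals were 25382 and 19225, which after scaling is 1.51-fold higher on the DKO-labelled array (log2 difference 0.59, error 0.20). Dst encodes dystonin, whose epithelial form is the hemidesmosomal antigen BP230 and whose other forms belong to nerve and muscle. Its brighter probe had signals of 1318 and 713, a difference of 0.11 that is smaller than its error of 0.20. The dimmer Dst probe had signals of 488 and 576 and was 2.35-fold higher (1.23), and the gap of 1.13 between the Dst probes exceeded the 95% range of its error (0.29). RefSeq lists 4 curated transcripts of Dst, and the probes carry the accessions of 2 of them. For Plec it lists 15, with a probe for 1. Which of the tissue forms each probe reads was not examined here, and muscle markers, whose tissue also makes both genes, had a median of 2.62 beside these values.

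**Figure D2:**
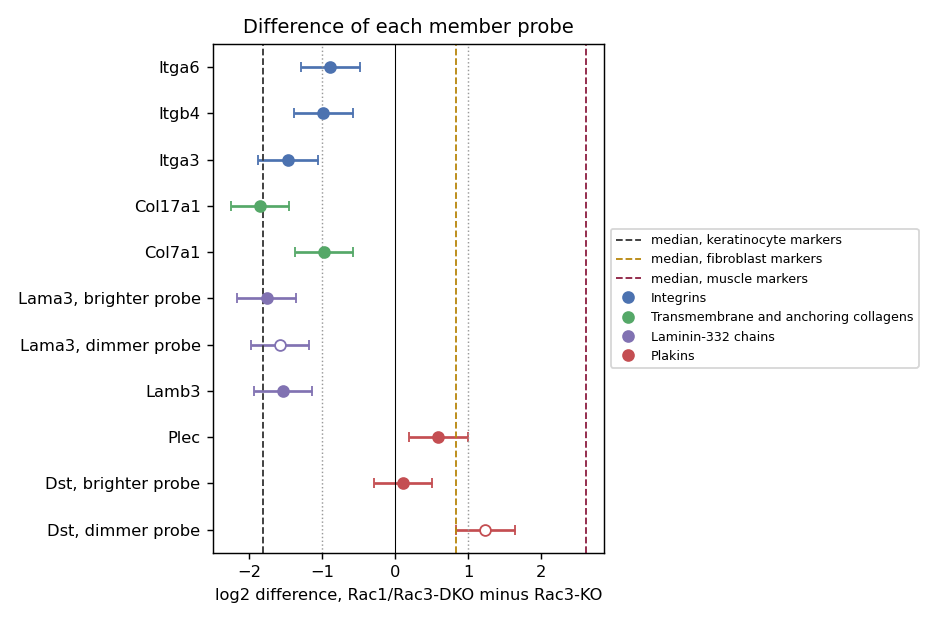
Log2 difference of each probe (DKO-labelled minus Rac3-KO array), coloured by role, with bars of the 95% range of the software's signal error; open circles are the dimmer probes of Lama3 and Dst, dotted lines mark 2-fold and dashed lines the medians of keratinocyte (-1.80), fibroblast (0.83) and muscle (2.62) markers. Col17a1 and Lama3 lay near the keratinocyte median, and Plec and Dst on the other side of 0 from the remaining genes.

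A shift common to a whole array cancels when the differences of genes are set against each other. Of the 36 pairs among the 9 genes, 22 had gaps beyond the 95% range of the software's error and 14 did not. The software's error was about 10% of the signal for each probe of the 9 genes, bright or dim. The 95% range therefore acts as a nearly fixed cut and does not measure the noise of these spots. It also holds no difference between probes. Between probes of the same gene the log2 difference had a root mean square SD of 0.38, and the Dst probes lay 1.13 apart. Gaps beyond the software's error thus also occurred within a gene. All gaps of Plec or Dst with a gene other than each other were among the 22. Itga6, Itgb4 and Col7a1 lay within error of each other, as did Col17a1, Lama3, Lamb3 and Itga3. These sets were not cleanly apart, since Itga3 and Lamb3 were also within error of Itgb4 and Col7a1.

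The signs depend on the scale that is chosen. With spike-in scaling the median of all genes was -2.08, and Plec and the brighter Dst probe were at -1.48 and -1.97; that Dst probe was also below 0, at -0.079, with normexp. The integrin, collagen and laminin genes were below 0 under every alternative except scaling to the keratinocyte markers, under which only Col17a1 was, by less than the software's error.

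**Figure D3:**
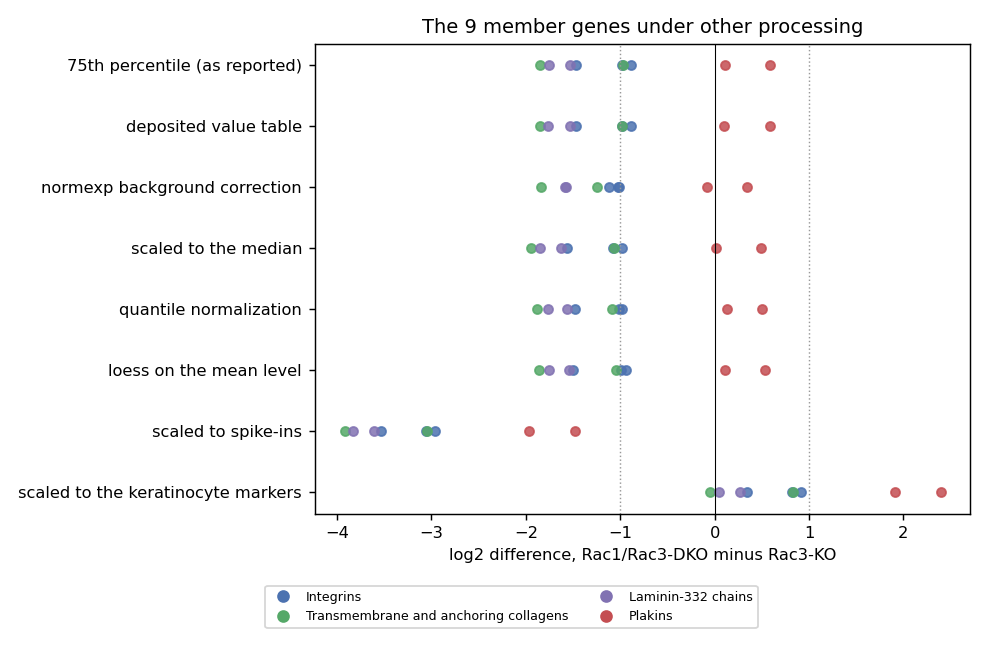
Log2 difference (x axis) of the 9 genes, coloured by role, with the reported scaling and 7 other ways of processing the arrays; dotted lines mark 2-fold. Col17a1, Lama3, Lamb3 and Itga3 stayed beyond 2-fold lower in every setting shown except scaling to the keratinocyte markers. With spike-in scaling all 9 genes were below 0, as was the median of all genes (-2.08).

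Against the median of the keratinocyte markers, 8 of the 9 genes were relatively higher on the DKO-labelled array and only Col17a1, at -0.045, was lower. For Col17a1, Lama3, Lamb3 and Itga3 the keratinocyte median lay inside the 95% range of the software's error, so their signs are not resolved. Lama3 was at 0.045, Lamb3 at 0.27, Itga3 at 0.34, Itgb4 at 0.82, Col7a1 at 0.83, Itga6 at 0.92, Dst at 1.91 and Plec at 2.40. Set against Krt14, a basal keratin that hemidesmosomes anchor, Col17a1 differed by 0.073 and Itga6 by 1.04. Against the brighter probe of Krt5, the keratin that pairs with Krt14, Col17a1 was at -0.65, beyond the 95% range of the software's error. Lama3, Lamb3 and Itga3 were at -0.56, -0.33 and -0.26 against Krt5. The remaining genes were above 0, from Itgb4 at 0.22 to Plec at 1.79. The further Krt5 probe differed by -1.97 in place of -1.20, so these signs depend on the keratin and the probe. The differences of Itga6, Itgb4 and Col7a1 lay at the upper end of the markers' own range, which ran from -4.95 to -0.87. By their brightest probes Krt1 and Krt10, at -4.95 and -4.50, set its lower end, and the next lowest marker was Krt15 at -2.31.

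The partners of the hemidesmosome were split too. Of 8 genes 4 were lower by 2-fold or more and 0 higher (median -0.94), beside 6.62% and 7.72% of all measured genes. Among the lower genes were Fermt1, the focal adhesion protein kindlin-1, at 4.35-fold, Krt14 at 3.79-fold and Krt5, the keratin partner of Krt14, at 2.30-fold. Fermt1 was near the floor on the DKO-labelled array (error 0.30). Its signal there was 30.7, or 1.53 times the lowest signal called well above background. Cd151, the tetraspanin bound to integrins α3β1 and α6β4, differed by 0.16, with signals of 8990 and 5036, and its further probe by -0.021. The scaffold gene Erbin and the tetraspanin gene Cd81 differed by 0.073 and 0.29. Among 5 relatives of the plakins, 4 were at least 2-fold lower: the cornified envelope plakins Evpl at 4.47-fold and Ppl at 2.60-fold, the desmosomal plakin Dsp at 3.18-fold, and Eppk1 at 2.14-fold. Macf1, the spectraplakin closest to Dst, differed by 0.22.

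Among 19 measured basement membrane genes the median was 0.30, with 4 lower by 2-fold or more and 0 higher. The lower genes were the collagen IV chains Col4a6 at 4.37-fold and Col4a5 at 3.30-fold, the proteoglycan gene Agrn at 2.54-fold, and Lama5, the α chain of laminin-511, at 2.36-fold. A further Col4a6 probe differed by -0.27 in place of -2.13. The nidogen gene Nid1, the muscle laminin chain Lama2 and Col4a1, which is made around vessels as well, differed by 0.84, 0.80 and 0.54. The basement membrane genes therefore went both ways, while Lama3 and Lamb3 were both lower. Of 4 measured genes of the Fraser complex, which holds the fetal epidermis to the dermis, 3 were at least 2-fold lower: Frem2 at 4.06-fold, Fras1 at 2.61-fold and the adaptor gene Grip1 at 2.58-fold. Genes that process or fold the anchoring matrix had a median of 0.23 over 8 measured, with Tll1, a protease of the BMP1 family, 3.05-fold lower at its brighter probe and at 0.22 (log2) at the other. Pcolce, Bmp1 and Serpinh1 differed by 0.90, 0.68 and 0.47. Over all 5 lists 16 of 44 measured genes were lower by 2-fold or more and 0 higher, beside 6.62% and 7.72% of all measured genes. Krt5 and Krt14 are also counted as basal keratins and keratinocyte markers, and Dsp as a desmosomal gene, so the lists are not independent. Fibroblast, endothelial and muscle markers, whose cells make basement membranes, were higher by medians of 0.83, 0.60 and 2.62 beside them.

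**Figure D4:**
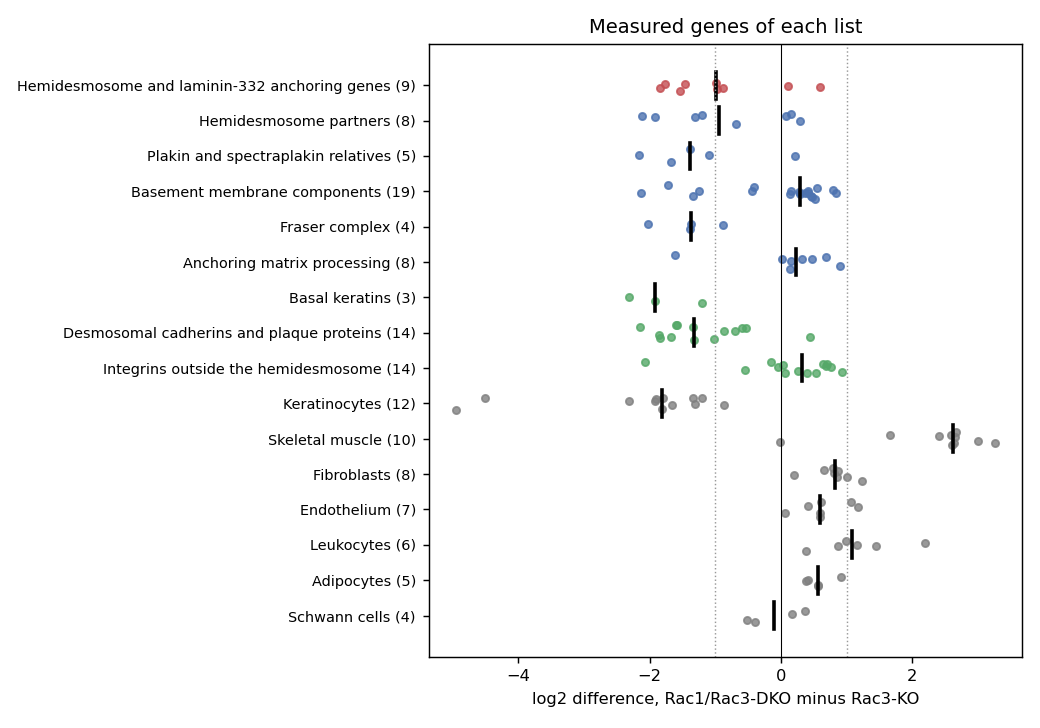
Log2 difference (x axis) of every measured gene of each list, with the number measured in brackets and the list's median as a black bar; red is the 9 genes, blue the further genes of the attachment, green other adhesion lists and gray markers of cell types. The 9 genes spread from -1.85 to 0.59, with 7 of them inside the range of the keratinocyte markers and Dst and Plec above it. That range was -4.95 to -0.87, or -2.31 to -0.87 without Krt1 and Krt10.

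Other adhesion genes give the setting. The basal keratins Krt15, Krt14 and Krt5 were all at least 2-fold lower (median -1.92). Of 14 desmosomal genes, which join keratinocytes to each other, 9 were lower by 2-fold or more and 0 higher (median -1.33). They were led by Dsg1a at 4.44-fold, Pkp1 at 3.61-fold and Dsg1b at 3.58-fold. The Dsg1 copies are near-identical, so a probe may read more than 1 copy. Dsg1b was near the floor on the DKO-labelled array, with a signal of 33.4, or 1.67 times the lowest signal called well above background. Pkp3 was the exception above 0, at 0.44. Of 14 measured integrin genes outside the hemidesmosome 1 was at least 2-fold lower, the epithelial chain Itgb6 at 4.20-fold (median 0.33). Itgb6 had a signal of 45.8 on the DKO-labelled array, or 2.28 times the lowest signal called well above background. By their brightest probes 0 of these genes were at least 2-fold higher, though further probes of Itgb1 and Itgav were at 1.04 and 1.21. Itga8 and Itga4 differed by -0.55 and -0.15, and Itga5, Itga7 and Itgb1 by 0.93, 0.76 and 0.70. Of these 14 genes 4 lay below 0, beside 7148 of all 14140 measured genes. Itga6, Itgb4 and Itga3 all lay below 0. These are counts over 2 arrays, and the difference between the lists was not tested.

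Sequences upstream of 5 of the 9 genes were at hand in RefSeq's table for GRCm38.p6, with 8 transcription starts, and the 250 bases before each start were searched on both strands. The AP-1 site, searched as TGANTCA, is held by 6.75% of all 32851 such windows. The Sp1 site GGGCGG is held by 32.7%. The core of the TATA box was searched as TATAAA and is held by 12.4%. The E-box CACCTG is held by 17.2%. None of the matches overlap in the windows shown. Itga3, Lamb3 and Dst have a pair of starts each, of which the upstream one is shown. The windows below belong to the 3 genes at least 2-fold lower for which one was at hand, to Col7a1, which was 1.97-fold lower, and to Dst, which was not lower, each written 5′ to 3′ on the strand of its gene with matches in capitals.
Col17a1, chr19:47692043-47692292, minus strand: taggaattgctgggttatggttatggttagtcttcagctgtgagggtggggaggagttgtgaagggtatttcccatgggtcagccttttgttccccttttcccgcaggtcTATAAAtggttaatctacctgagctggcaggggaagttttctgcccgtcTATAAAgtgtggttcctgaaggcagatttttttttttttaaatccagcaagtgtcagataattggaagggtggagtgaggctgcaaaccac
Lamb3, chr1:193301744-193301993, plus strand: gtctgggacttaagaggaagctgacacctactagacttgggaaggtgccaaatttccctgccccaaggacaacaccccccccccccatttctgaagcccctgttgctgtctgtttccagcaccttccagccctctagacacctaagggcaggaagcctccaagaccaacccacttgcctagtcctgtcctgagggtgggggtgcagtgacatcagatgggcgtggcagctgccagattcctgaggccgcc
Itga3, chr11:95076715-95076964, minus strand: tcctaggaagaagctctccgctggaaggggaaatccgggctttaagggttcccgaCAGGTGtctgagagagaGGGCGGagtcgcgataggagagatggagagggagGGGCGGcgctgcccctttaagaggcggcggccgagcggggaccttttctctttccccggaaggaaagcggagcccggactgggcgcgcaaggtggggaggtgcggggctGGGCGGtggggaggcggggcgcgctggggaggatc
Col7a1, chr9:108953336-108953585, plus strand: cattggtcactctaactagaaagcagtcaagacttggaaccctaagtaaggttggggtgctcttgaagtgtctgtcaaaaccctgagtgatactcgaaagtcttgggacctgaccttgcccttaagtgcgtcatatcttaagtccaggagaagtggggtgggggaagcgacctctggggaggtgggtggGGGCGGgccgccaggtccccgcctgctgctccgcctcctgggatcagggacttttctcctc
Dst, chr1:34011345-34011594, plus strand: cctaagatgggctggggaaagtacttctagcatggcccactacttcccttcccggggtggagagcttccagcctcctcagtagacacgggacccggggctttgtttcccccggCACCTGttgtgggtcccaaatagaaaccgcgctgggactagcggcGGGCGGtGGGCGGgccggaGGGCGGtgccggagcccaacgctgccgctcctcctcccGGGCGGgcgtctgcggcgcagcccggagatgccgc
Col17a1 holds TATAAA 2 times, beginning 140 and 91 bases before the start. Itga3 holds 3 Sp1 matches and 1 E-box match, Dst holds 4 Sp1 matches and 1 E-box match, and Col7a1 holds 1 Sp1 match. The Lamb3 window shown holds none of the 4 motifs, while the window of its downstream start holds 1 E-box match 6 bases before that start. At their downstream starts Itga3 holds 1 Sp1 match and Dst none of the motifs. None of the 8 windows holds the AP-1 letters. Of the motifs, none was in the windows shown of all 3 lower genes, which the empty Lamb3 window alone decides. Lama3, which was also at least 2-fold lower, had no window at hand. The Sp1 and E-box matches of Itga3 were also found in Dst, which was not lower. A link between these motifs and the differences was not tested.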

How the data were processed

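Labelled cRNA of 1 sample per genotype was hybridised to 1-colour Agilent arrays. The deposited scanner files hold spot intensity, extracted per the file headers with Feature Extraction version 10.10.1.1 and with detrending within each array and no scaling between arrays; the submitters' processing notes name version 9.1. The authors' deposited table of log2 values differs from the log2 processed signal by 1 constant per array for 100% of probes with 1 spot (tolerance 0.001); its medians are -3.72 and -3.62, so scale and centring are known. Both arrays share a slide and scan, per the file headers.

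Control spots and outlier spots (155 and 190) were left out, log2 signals averaged per probe, and each array's 75th percentile subtracted. Probes were named through RefSeq accessions of the GRCm38.p6 table; the array design refers to mm9, so its gene coordinates are not printed. A gene was represented by its brightest probe and counted as measured if the software marked that probe above background on each array. No spot was saturated. Genes were counted at 2-fold. The error of a gap between differences combines the software's signal errors. The log2 difference had a median SD of 0.093 over the spots of 277 probes with 8 or more of them and a root mean square SD of 0.38 between probes of a gene. The gene rule was tested on simulated data.

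The members and lists were chosen with earlier results of these data known. Named were all 9 genes, Cd151, Krt5 and Krt14, up to 3 genes each way per list and the 2 brightest markers of a list. Eppk1, Lama5, Krt1 and Krt10 were named after their values were seen. Some genes that the rule covers are not reported here. Alternatives (15 planned, 1 added after the data were seen) covered background correction with limma 3.58.1, scaling, filters, probe choice and thresholds. Figures used matplotlib 3.10.9.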

Additional observations from a re-analysis of the deposited data

How the results depend on the processing

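The count of 4 lower genes and 0 higher ones was the same or within 1.5 times under most alternatives: 6 lower with scaling to the median or quantile normalization, 5 with loess, and 4 with the deposited table. Several alternatives that gave 4 could hardly have differed. The deposited table holds the same signals less a constant per array, at nearly the same centring. All 11 probes passed the stricter filter of 4 times the lowest detected signal, the dimmest at 7.75 times. Of the 9 genes 7 have 1 probe, so the choice of probe could change only Lama3 and Dst. The count was 7 with normexp background correction, where Itga6, Itgb4 and Col7a1 passed the line at -1.02, -1.03 and -1.24. At a threshold of 1.5-fold 7 were lower and 1 higher. At 3-fold 2 were lower, where the further lists had 8 lower. At 1.5-fold the further lists had 4 higher. Over all genes 2334 were lower and 2581 higher at 1.5-fold, and 314 were lower at 3-fold. With spike-in scaling, where the 7 spike-in probes differed by 1.08 and the 75th percentile by -0.99 before scaling, all 9 genes and all 44 further genes were lower, the median was -3.06 and the dimmer Dst probe was at -0.84. Scaled to the keratinocyte markers, 0 genes were lower and 2 higher, the median was 0.82, and Itga3 (0.34), Lama3 (0.045, and 0.23 at its dimmer probe) and Lamb3 (0.27) changed sign, as did Itgb4, Col7a1 and Itga6; of the further genes 0 were lower and 27 higher. The median of all genes was -2.08 and 1.80 under these scalings. Of all 14140 genes, 13196 were at least 2-fold lower with spike-in scaling, and 12703 at least 2-fold higher when scaled to the keratinocyte markers. With the dimmest probe of each gene, added after the data were seen, Dst was at 1.23, giving 1 gene higher, and 1 further gene was higher. The brighter Dst probe was at -0.079 with normexp. Over all genes, scaling to the median gave 891 higher and 1151 lower in place of 1091 and 936, and without a filter on detection 2122 and 1520. No paired analysis was possible because each genotype has 1 array and the labels carry no replicate numbers. Precision is limited by there being 2 arrays.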

Other observations

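Several genes beside the hemidesmosome had probes that differed from each other by more than the software's error. Trp63, the transcription factor of stratified epithelia, had a brighter probe with signals of 16133 and 2331 (log2 difference -1.80) and a further probe, on another transcript accession, with signals of 4365 and 2958 (0.43). Krt5 had probes at -1.20 and -1.97, so that its fold depends on the probe. Itgav, the αv integrin chain, had probes at 0.056 and 1.21, and Kdr, an endothelial receptor, at 1.17 and 0.24. These genes were chosen after their values were seen.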
